A study of Mus musculus with 12 samples.

Results

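Cd28, Il7r, Ccr7, S1pr1, Lef1, Tcf7, Klf2, Satb1 and Bach2 are genes that resting T lymphocytes transcribe. These 9 genes were taken by symbol and looked up among the 56941 Ensembl gene IDs of a table of RNA counts, and each symbol matched 1 ID. The RNA came from mandibular lymph nodes of miR-451a KO mice and wild-type mice, all sensitized to the contact allergen 1-fluoro-2,4-dinitrobenzene (DNFB), 100 µl of a 0.5% solution on the shaved abdomen on days 0, 1 and 2. In KO_DTH and WT_DTH the left ear was challenged with 20 µl of 1% DNFB on day 9, and the nodes were taken 24 hours later, on day 10. In KO_se and WT_se there was no challenge and the nodes were taken on day 9, so an effect of challenge and an effect of harvest day cannot be told apart. Each of the 4 groups (KO_DTH, KO_se, WT_DTH and WT_se) held 3 libraries. The labels give no age, sex, strain or way of making the knockout, and do not say whether libraries come from separate animals. Every animal had been sensitized, so there was no untreated node to set these levels against. The submitters' stated purpose is to learn what miR-451a does in this delayed-type reaction. The microRNA itself was not analysed here, so the knockout label was not checked on its target.

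A naive T cell circulates between blood and lymph nodes until it meets its antigen. CCR7 guides it into the node along the chemokines CCL19 and CCL21, and S1PR1 lets it leave again toward sphingosine 1-phosphate in the lymph. IL-7 receptor signals keep it alive, and CD28 gives the second signal for its activation. The transcription factors TCF-1 (Tcf7), LEF-1 (Lef1), KLF2, SATB1 and BACH2 hold the resting programme, and many of these genes are shut down after antigen stimulation. Several are not restricted to T cells: Klf2 and S1pr1 are also transcribed in endothelium and B cells, Ccr7 in mature dendritic cells and Bach2 in B cells.

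Promoter sequences are shown for 4 of the 9 genes whose levels took different courses, so that the start regions of genes with lower and higher counts after challenge can be read side by side. Il7r and Lef1 were lower in challenged wild-type nodes, Satb1 was higher and Klf2 did not pass the test. Each run holds the 250 bases before the most upstream start in RefSeq, 5′ to 3′ along the gene, on GRCm38.p6, which is an older build than that of the counts. Capitals mark matches on either strand to 6 motifs, namely forkhead TGTTTAC, TCF/LEF CTTTGAT, KLF GGGTGTG, ETS CCGGAAG, RUNX TGTGGTT and MEF2 TAAATTTA.
Il7r (chr15:9529877-9530126, minus strand): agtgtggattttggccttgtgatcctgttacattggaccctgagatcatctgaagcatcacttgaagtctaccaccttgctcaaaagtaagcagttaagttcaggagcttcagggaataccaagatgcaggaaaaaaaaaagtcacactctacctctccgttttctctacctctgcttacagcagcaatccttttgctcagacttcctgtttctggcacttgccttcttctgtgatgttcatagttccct
Lef1 (chr3:131110047-131110296, plus strand): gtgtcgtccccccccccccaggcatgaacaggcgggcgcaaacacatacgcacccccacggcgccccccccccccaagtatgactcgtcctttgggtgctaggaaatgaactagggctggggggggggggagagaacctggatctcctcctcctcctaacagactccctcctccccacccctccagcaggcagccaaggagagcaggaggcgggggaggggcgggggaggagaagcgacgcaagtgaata
Klf2 (chr8:72318812-72319061, plus strand): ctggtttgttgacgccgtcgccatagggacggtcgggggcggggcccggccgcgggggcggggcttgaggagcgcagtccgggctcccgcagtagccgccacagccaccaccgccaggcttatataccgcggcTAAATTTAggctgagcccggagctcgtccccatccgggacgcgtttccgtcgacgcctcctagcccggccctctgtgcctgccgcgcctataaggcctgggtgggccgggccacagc
Satb1 (chr17:51833291-51833540, minus strand): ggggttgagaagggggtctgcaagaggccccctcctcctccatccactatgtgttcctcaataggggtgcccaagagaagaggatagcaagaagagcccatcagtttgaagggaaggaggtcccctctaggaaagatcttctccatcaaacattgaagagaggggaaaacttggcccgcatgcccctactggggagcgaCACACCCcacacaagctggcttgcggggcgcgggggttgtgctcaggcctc

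The Klf2 window held 1 match, to the MEF2 motif, 110 to 117 bases before the start, a motif found in 0.503% of 32817 promoter windows of the same length. The Satb1 window held 1 KLF match, 45 to 51 bases before the start, against 6.93% of windows. The Il7r and Lef1 windows held none of the 6. The forkhead and TCF/LEF motifs, each in about the same share of windows (3.16% and 3.21%), were in none of the 4 windows, nor were ETS (6.90%) and RUNX (4.39%). A match is a string of letters and not a shown binding site.

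The libraries held 36946696 to 58405576 estimated counts in total. All 16 T cell identity genes followed (the CD3 chains, the receptor constant genes, Cd2, Lck and others) were measured, so T cell RNA was present in every library. RNA of other tissue was present too, and its share moved with the groups. Salivary gland genes took 7.20 ± 2.77% in KO_DTH, 4.11 ± 1.85% in KO_se, 2.26 ± 0.582% in WT_DTH and 9.54 ± 3.66% in WT_se (mean ± SD, n = 3 each). Mitochondrially encoded genes took 10.5 ± 5.10% in KO_DTH, 13.6 ± 2.09% in KO_se, 5.13 ± 0.733% in WT_DTH and 17.0 ± 2.83% in WT_se, and erythroid genes 0.288 ± 0.174% in KO_DTH, 0.863 ± 0.625% in KO_se, 0.243 ± 0.0172% in WT_DTH and 1.09 ± 0.384% in WT_se. The 12 B cell genes took 0.386 ± 0.0919% in KO_DTH, 0.393 ± 0.0837% in KO_se, 0.475 ± 0.0660% in WT_DTH and 0.231 ± 0.0301% in WT_se. KO_DTH replicate 2 had the most mitochondrial (15.7%) and salivary (8.92%) counts of its group, and in that group the lowest CPM of Cd28, Il7r, Ccr7, S1pr1 and Lef1. Tcf7, Klf2, Satb1 and Bach2 were lowest in KO_DTH replicate 1, whose salivary share was 8.67%. The part of these other RNAs in the results below was not tested beyond the fits with a salivary covariate or with libraries left out that are given beside them.

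All 9 genes passed the filter on low counts. Set against exon length, in library-scaled counts (CPM) per kilobase (mean ± SD, n = 3), Ccr7 and Klf2 stood highest in every group. Klf2 averaged 438 ± 47.3 and Ccr7 408 ± 57.4 in KO_DTH, and 445 ± 31.8 and 382 ± 37.0 in WT_DTH, within their spread. Ccr7 lay above Klf2 beyond their spread in KO_se (492 ± 34.8 and 354 ± 7.12) and in WT_se (547 ± 52.0 and 429.8 ± 17.6). S1pr1 came next in each group, with 150.0 ± 11.8 in KO_DTH and 239.6 ± 27.1 in WT_se, followed by Tcf7 with 146 ± 15.8 and 193 ± 16.2. Il7r, Satb1 and Cd28 lay lower, Satb1 leading them in KO_DTH (36.6 ± 0.202) and WT_DTH (47.9 ± 1.94), and Il7r in KO_se (44.3 ± 7.66) and WT_se (67.8 ± 16.9). Bach2 and Lef1 stood lowest, at 16.8 ± 1.47 and 14.6 ± 0.843 in KO_DTH, within their spread, and at 16.2 ± 3.15 and 23.6 ± 1.16 in WT_se, beyond it. The length is the union of annotated exons, 19027 bases for Satb1 and 1847 for Klf2, so a gene with many rarely used exons is placed too low.

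Among the surface receptors, Cd28, the costimulatory receptor, had 159.8, 121 and 174 CPM in KO_DTH, 181, 189.7 and 253 CPM in KO_se, 136, 150.0 and 129.9 CPM in WT_DTH and 343, 309.8 and 276 CPM in WT_se (replicates 1, 2 and 3 of each group). WT_se stood above every other library, and WT_DTH did not overlap it. KO_DTH lay below KO_se without overlap, and within KO_DTH replicate 2 was lowest. Il7r, the receptor chain for IL-7, had 179.8, 114 and 158 CPM in KO_DTH, 166, 224 and 231 CPM in KO_se, 173, 227 and 142 CPM in WT_DTH and 351, 371 and 226 CPM in WT_se. WT_se replicate 3 fell among the other groups here, while replicates 1 and 2 lay above all of them. Ccr7, the node-homing receptor, had 908, 684 and 829 CPM in KO_DTH, 900.2, 984 and 1037 CPM in KO_se, 674, 781 and 814 CPM in WT_DTH and 1027, 1201 and 1019 CPM in WT_se. The WT_DTH libraries lay below the 3 WT_se libraries, and KO_se overlapped WT_se. S1pr1, the egress receptor, had 467, 417 and 487 CPM in KO_DTH, 519, 509.5 and 532 CPM in KO_se, 509, 543 and 438 CPM in WT_DTH and 819, 715 and 656 CPM in WT_se. Here KO_se, KO_DTH and WT_DTH lay below all WT_se libraries, and KO_DTH also lay below KO_se without overlap. Over all genes tested, WT_DTH lay below WT_se without overlap in 17.9% and above it in 17.6%. For KO_se against WT_se these shares were 12.9% and 15.1%, for KO_DTH against KO_se 14.9% and 15.1%, and for KO_DTH against WT_DTH 8.64% and 10.1%.

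Among the transcription factors, Lef1 had 132, 119 and 132 CPM in KO_DTH, 137, 117 and 148 CPM in KO_se, 128, 147 and 120.2 CPM in WT_DTH and 219, 200.03 and 204 CPM in WT_se. WT_se stood apart from the other 9 libraries, which overlapped one another. Tcf7, the partner of Lef1 in the same HMG-box family, had 357, 361 and 431 CPM in KO_DTH, 380.1, 341 and 453 CPM in KO_se, 349, 403 and 335 CPM in WT_DTH and 475, 489 and 555 CPM in WT_se. WT_se again lay above the other 9 libraries, the nearest being KO_se replicate 3. Klf2, which drives S1pr1 transcription in T cells, had 753, 765 and 909.9 CPM in KO_DTH, 664, 639.7 and 659.9 CPM in KO_se, 768, 812 and 884 CPM in WT_DTH and 820.2, 757 and 804 CPM in WT_se. Only KO_se stood lower, below all 9 other libraries.

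Satb1, a genome organizer of the T lineage, had 694, 696 and 701 CPM in KO_DTH, 509, 441 and 381 CPM in KO_se, 924, 939.7 and 869 CPM in WT_DTH and 726, 651 and 649 CPM in WT_se. Here WT_DTH was highest and KO_se lowest, with no overlap with any other group, while KO_DTH lay within the range of WT_se. Bach2, a repressor that holds back effector differentiation, had 152, 169 and 181 CPM in KO_DTH, 172, 145 and 159 CPM in KO_se, 226, 179 and 189.6 CPM in WT_DTH and 173, 125 and 184 CPM in WT_se, and its groups overlapped except that WT_DTH lay apart from KO_se. Counts of RNAs annotated within the same loci were small beside these genes: the antisense Gm43352 held 2.08% of the Lef1 total, Bach2it1 2.91% of that of Bach2 and E430014B02Rik 3.89% of that of Satb1. Whether the counting used strand is not given in the sources used here, so reads from overlapping parts of these loci cannot be told apart.

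**Figure D1:**
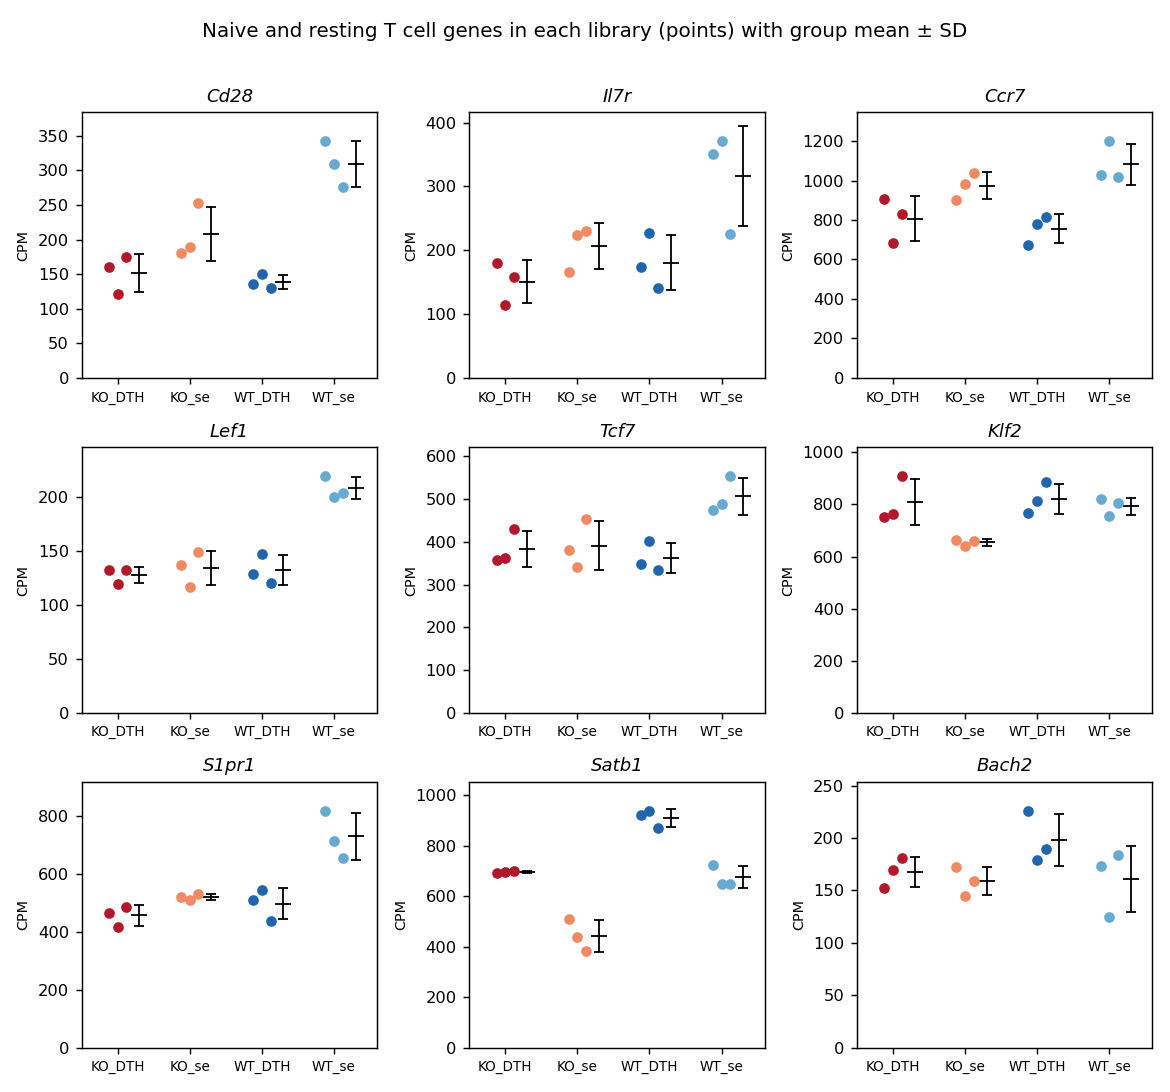
CPM of the 9 genes (vertical axes, from 0) in KO_DTH, KO_se, WT_DTH and WT_se; each point is 1 library and the bar beside it is the group mean ± SD (n = 3). For Lef1 and S1pr1 the 3 WT_se points lie above all others, and for Satb1 the 3 WT_DTH points do.

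WT_DTH against WT_se shows what differed in the challenged wild-type node. Of the 9 genes, 6 fell and 1 rose in WT_DTH against WT_se, where 8.97% of the 20034 genes tested fell and 9.77% rose. The median log2 fold change of the 9 was -0.52, against -0.01 over all genes tested. With libraries scaled to T cell genes, described further on, 3 of the 9 rose and 1 fell, beside 44.7% and 3.52% of all genes. Cd28 fell most, 2.23-fold (log2 fold change -1.16 ± 0.15, adjusted p = 0.000302). Fewer T cells and less of this RNA per T cell cannot be told apart in RNA of whole nodes. Lef1 fell (-0.66 ± 0.10, adjusted p = 0.000918), and so did S1pr1 (-0.55 ± 0.10, adjusted p = 0.00323). Il7r (-0.81 ± 0.22, adjusted p = 0.0244), Ccr7 (-0.52 ± 0.12, adjusted p = 0.00954) and Tcf7 (-0.48 ± 0.12, adjusted p = 0.0143) fell too, the signs of Ccr7, Tcf7 and S1pr1 turning on the T cell scale. Satb1 rose 1.35-fold (0.43 ± 0.10, adjusted p = 0.0101). Klf2 (0.05 ± 0.09, adjusted p = 0.781) and Bach2 (0.30 ± 0.14, adjusted p = 0.153) did not pass. In the same comparison 16 of 18 salivary, 13 of 13 mitochondrial and 5 of 8 erythroid genes fell.

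Cd28, Lef1, S1pr1 and Satb1 kept their calls whichever of the 12 libraries was left out. That for Il7r was lost without WT_se replicate 1 or 2 and without WT_DTH replicate 1 or 3 (adjusted p up to 0.120). Tcf7 was lost without WT_se replicate 3 and without WT_DTH replicate 1 or 3, and Ccr7 without WT_DTH replicate 1, so that 4 of the 9 passed without WT_DTH replicate 1. With the salivary score as covariate 0 of the 9 passed by edgeR and 5 had an unadjusted p below 0.05, while 32 of all genes passed, against 3755 without the covariate. Under that covariate the log2 fold change was -1.18 ± 0.31 for Cd28, -1.19 ± 0.44 for Il7r, -0.51 ± 0.21 for Lef1 and 0.22 ± 0.20 for Satb1.

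KO_DTH against KO_se is the matching contrast within the knockout. Only Satb1 passed by edgeR, and it rose 1.57-fold (0.65 ± 0.10, adjusted p = 0.00153), a call that held in all 21 other fits run. Thus 1 of 9 genes rose and 0 fell, beside 5.81% and 3.86% of all genes, while 4 of the 9 had an unadjusted p below 0.05. Klf2 was 0.31 ± 0.09, adjusted p = 0.0541, with all 3 KO_DTH libraries above the KO_se range, as in 15.1% of all genes. Klf2 passed with DESeq2 size factors, with a mean of at least 50 counts and on the T cell scale. Cd28 was -0.45 ± 0.15, adjusted p = 0.0752 and Il7r -0.46 ± 0.22, adjusted p = 0.235. Lef1 (-0.07, 95% interval -0.30 to 0.16) and Tcf7 (-0.03, -0.31 to 0.25) gave values near 0, and their sign turned on the T cell scale and in some fits with a library left out. Cd28 passed without KO_DTH replicate 3, giving 2 genes. By DESeq2 3 of the 9 passed, with Cd28 at an adjusted p = 0.0131 and Klf2 at 0.00438 beside Satb1.

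KO_se against WT_se sets the genotypes side by side after sensitization alone. All 9 log2 fold changes of KO_se against WT_se were below 0 (Ccr7 and Bach2 turned positive on the T cell scale), and 4 genes fell: Lef1, Satb1, S1pr1 and Cd28. None rose, beside 1.40% of all genes that fell and 3.76% that rose. This comparison and WT_DTH against WT_se share the 3 WT_se libraries, so their values are not independent. Lef1 fell 1.55-fold (-0.63 ± 0.10, adjusted p = 0.00472) and Satb1 1.52-fold (-0.61 ± 0.10, adjusted p = 0.00593), and both calls held without any 1 library. S1pr1 fell (-0.49 ± 0.10, adjusted p = 0.0195), a call lost without WT_se replicate 1, KO_se replicate 1 or KO_se replicate 2. Cd28 fell (-0.58 ± 0.15, adjusted p = 0.0440). Leaving out any WT_se or WT_DTH library, or KO_se replicate 1 or 2, ended that call, as did using no filter on low counts and the replicate block (adjusted p = 0.0616). In the fits without WT_se replicate 1, KO_se replicate 1 or KO_se replicate 2, 2 of the 9 passed. Il7r (-0.61 ± 0.22, adjusted p = 0.128), Tcf7 (-0.37 ± 0.12, adjusted p = 0.0929) and Klf2 (-0.28 ± 0.09, adjusted p = 0.0981) did not pass, nor did Ccr7 (-0.15 ± 0.12, adjusted p = 0.506) or Bach2 (-0.02 ± 0.14, adjusted p = 0.964). By DESeq2 6 of the 9 passed, the 4 above with Tcf7 (adjusted p = 0.0131) and Klf2 (0.00871). By edgeR Tcf7 passed without KO_se replicate 3 (0.0483), and Il7r passed without the library richest in salivary counts of each group (0.0364). With the salivary score as covariate 0 of the 9 passed by edgeR and 6 had an unadjusted p below 0.05, with Satb1 at -0.75 ± 0.15 (adjusted p = 0.0599) and Lef1 at -0.54 ± 0.15 (adjusted p = 0.152).

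KO_DTH against WT_DTH sets the genotypes side by side after challenge. None of the 9 genes passed by edgeR, beside 0.514% of all genes that rose and 0.0849% that fell, while 1 had an unadjusted p below 0.05 and 1 passed by DESeq2. Both of those were Satb1 (-0.39 ± 0.10, adjusted p = 0.0945, and adjusted p = 0.00333 by DESeq2), whose 3 KO_DTH libraries lay below the 3 WT_DTH libraries, as in 8.64% of all genes. For the other 8 genes the log2 fold change lay between -0.26 (Il7r, 95% interval -0.78 to 0.25) and 0.13 (Cd28, -0.21 to 0.47). The interval was -0.27 to 0.19 for Lef1 and -0.36 to 0.12 for S1pr1.

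Whether the challenge difference itself differed between the genotypes was tested as an interaction. None of the 9 passed by edgeR, beside 1.67% of all genes above 0 and 0.439% below, while 4 had an unadjusted p below 0.05 and 2 passed by DESeq2. On the T cell scale 0 of the 9 had an unadjusted p below 0.05 by edgeR, and with the salivary score as covariate 0 as well. In the main fit Lef1 came closest (0.59 ± 0.14, adjusted p = 0.0518). It passed with DESeq2 size factors (adjusted p = 0.0481) and by DESeq2's own test (0.00397), and its lowest value in the other settings was 0.31. S1pr1 was 0.37 ± 0.15, adjusted p = 0.23. Cd28 was 0.71 ± 0.21, adjusted p = 0.102, and 0.0181 by DESeq2. Without KO_se replicate 3 both genes passed, with adjusted p = 0.0322 for Lef1 and 0.0360 for Cd28. The values were above 0 for 8 of the 9 genes, Bach2 being the exception (-0.23 ± 0.19, adjusted p = 0.655), and those of Ccr7, Klf2 and Satb1 turned below 0 on the T cell scale. Among the T cell identity genes Cd3e passed (0.64 ± 0.14, adjusted p = 0.0429), and 12 of 18 salivary genes passed above 0.

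**Figure D2:**
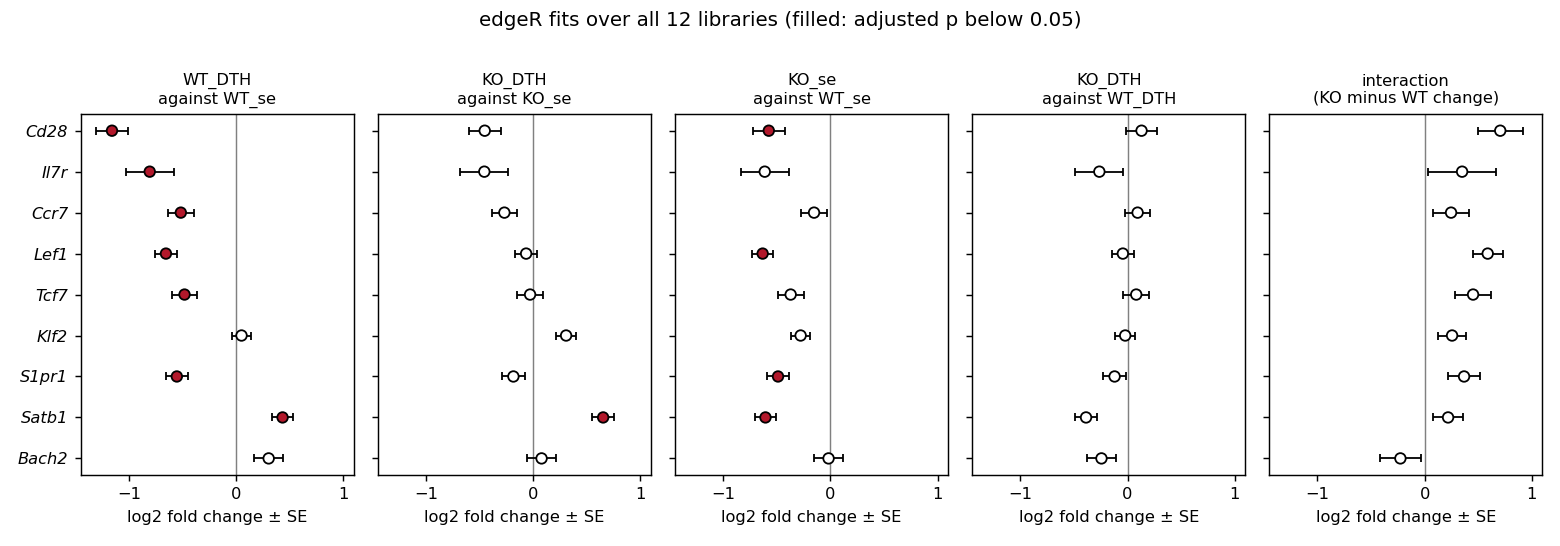
Log2 fold change ± SE (horizontal axes) of the 9 genes in 4 comparisons and the interaction, from 1 edgeR model of the 12 libraries; filled points passed an adjusted p of 0.05. In WT_DTH against WT_se 6 filled points lie left of 0 and Satb1 right of it (with libraries scaled to T cell genes Ccr7, Tcf7 and S1pr1 turn to the right of 0), in KO_DTH against KO_se only Satb1 is filled, in KO_se against WT_se 4 are filled left of 0 and none of them is called on the T cell scale, and none is filled in the last 2 panels.

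T cell genes as a whole were also lower after challenge on the scale used so far, so each gene was set against the 16 T cell identity genes of its own library. Of these 16, 14 fell in WT_DTH against WT_se (median log2 fold change -0.60), 6 fell in KO_DTH against KO_se (-0.34) and 3 fell in KO_se against WT_se (-0.15). KO_DTH against WT_DTH gave 0 calls by edgeR and 1 at an unadjusted p below 0.05 (median 0.12). Cd3e, a chain of the T cell receptor complex, had 137, 125 and 129 CPM in KO_DTH, 125, 139 and 154 CPM in KO_se, 98.4, 129 and 119 CPM in WT_DTH and 191, 199 and 189 CPM in WT_se. It fell in WT_DTH (-0.74 ± 0.10, adjusted p = 0.000485) and in KO_se (-0.47 ± 0.10, adjusted p = 0.0215), each against WT_se. Of 12 B cell genes 9 rose in WT_DTH and 3 in KO_se, both against WT_se.

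The log2 ratio of Cd28 to the T cell genes was 0.19, -0.08 and -0.12 in WT_DTH and 0.72, 0.42 and 0.48 in WT_se. Its groups did not overlap, and the mean ratio differed by -0.54, lower in WT_DTH (two-sided exact permutation p = 0.1, the smallest that 3 against 3 libraries can give). For Ccr7 (0.10), Lef1 (-0.05), Tcf7 (0.13), S1pr1 (0.06) and Il7r (-0.19) the ratios of the groups overlapped, with exact p of 0.4 to 0.9. Those for Klf2 (0.66), Bach2 (0.93) and Satb1 (1.05) lay higher in all 3 WT_DTH libraries than in WT_se (exact p = 0.1 each). Over all genes tested the ratio was higher without overlap in 52.3% and lower in 5.48% in this comparison. In KO_DTH against KO_se the same 3 genes lay higher without overlap (0.63, 0.41 and 0.99 for Klf2, Bach2 and Satb1), and so did Lef1 (0.27) and Tcf7 (0.30), beside 34.8% of all genes. In KO_se against WT_se the ratio lay lower without overlap for Lef1 (-0.47), Cd28 (-0.41) and S1pr1 (-0.31), beside 4.99% of all genes. In KO_DTH against WT_DTH it did so for Satb1 (-0.496) and S1pr1 (-0.23), beside 9.92%. These are 36 ratios, none of which can pass an adjustment at this size.

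The same question can be put to edgeR by scaling each library to its T cell genes, which shifts the median of all genes by 0.61 in WT_DTH against WT_se, 0.32 in KO_DTH against KO_se and 0.17 in KO_se against WT_se. Against that scale Cd28 still fell in WT_DTH (-0.54 ± 0.14, adjusted p = 0.00582), and Satb1 (1.05), Bach2 (0.93) and Klf2 (0.66) rose. The values of Ccr7 (0.10), Tcf7 (0.12) and S1pr1 (0.06) turned positive and did not pass. In the knockout Satb1 (0.97) and Klf2 (0.63) rose on that scale in KO_DTH against KO_se, beside 13.4% of all genes that rose and 0.429% that fell. In KO_se against WT_se 0 of the 9 passed by edgeR on it, and 4 had an unadjusted p below 0.05, among them Lef1 (-0.47, adjusted p = 0.0536), while 5.02% of all genes rose and 0.210% fell.

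**Figure D3:**
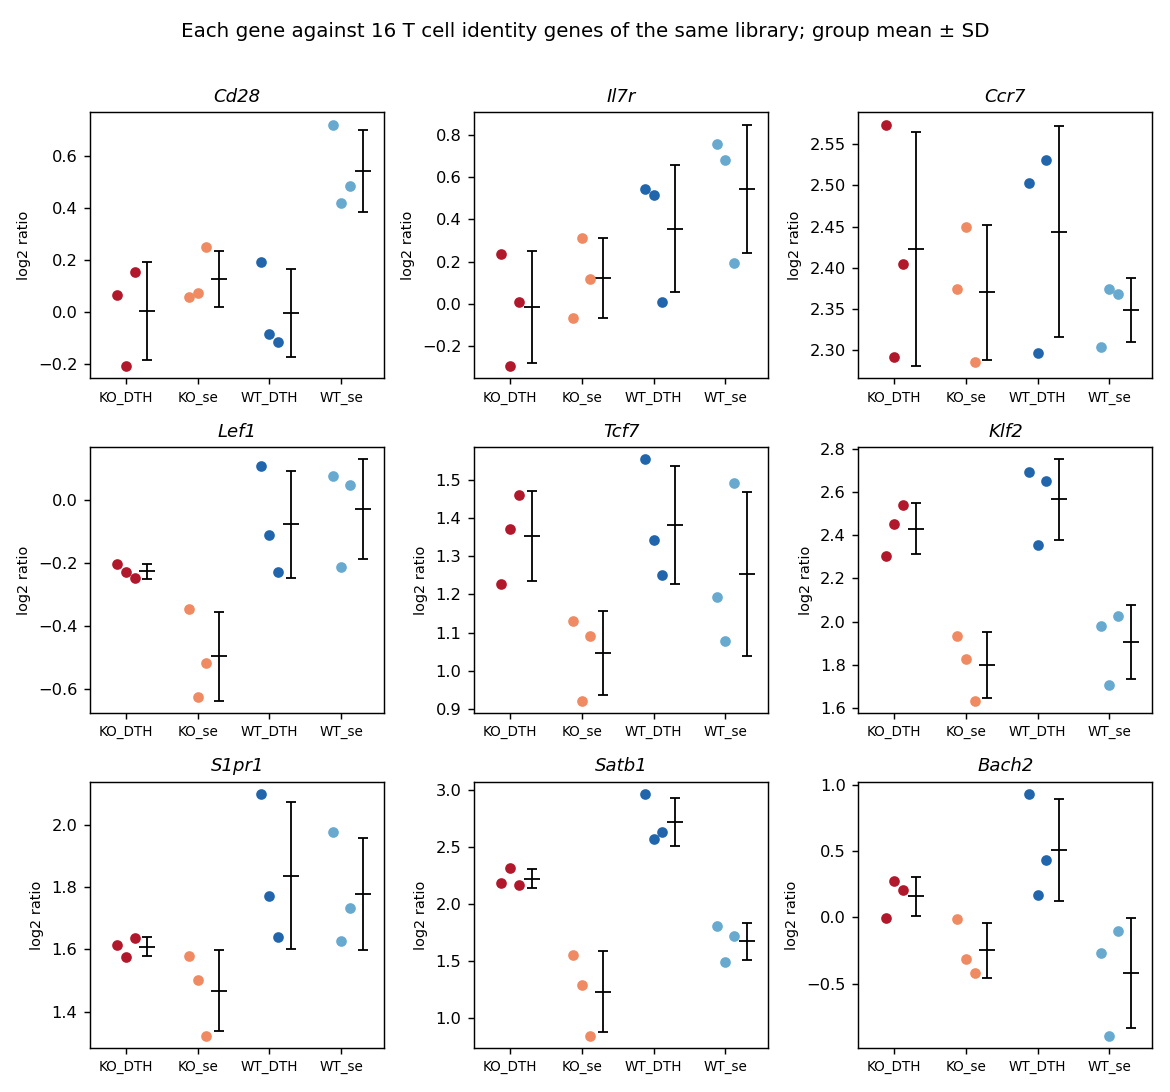
Log2 ratio of each gene to the mean of 16 T cell identity genes in the same library (vertical axes, each panel on its own range) in KO_DTH, KO_se, WT_DTH and WT_se; points are libraries and bars the group mean ± SD (n = 3). For Klf2, Satb1 and Bach2 the 3 WT_DTH points lie above the 3 WT_se points, and for Cd28 they lie below them.

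The other genes of each pathway were followed from lists, whose counts stand beside these shares of all genes tested. In WT_DTH against WT_se 9.77% rose and 8.97% fell, and in KO_DTH against KO_se 5.81% rose and 3.86% fell. In KO_se against WT_se 3.76% rose and 1.40% fell, and in KO_DTH against WT_DTH 0.514% rose and 0.0849% fell. Of 10 genes around CD28 signalling, 5 rose and 1 fell in WT_DTH against WT_se. Both ligands rose: Cd80 had 16.4, 13.4 and 19.4 CPM in WT_DTH against 3.77, 5.33 and 5.88 CPM in WT_se (1.71 ± 0.27, adjusted p = 0.00102), and Cd86 rose by 1.30 ± 0.16, adjusted p = 0.000236. They also rose in KO_DTH against KO_se (Cd80 1.496 ± 0.26, adjusted p = 0.00369, and Cd86 0.85 ± 0.16, adjusted p = 0.00557), the comparison in which Cd28 itself did not pass. The adaptor Grb2 rose in WT_DTH (0.56 ± 0.09, adjusted p = 0.00132), and the kinase Prkcq, which acts below CD28, fell (-0.45 ± 0.11, adjusted p = 0.0158, or 0.16 on the T cell scale). Prkcq also fell in KO_se against WT_se (-0.48 ± 0.11, adjusted p = 0.0323), a value of -0.30 on the T cell scale.

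Of 10 genes of the IL-7 receptor pathway, 3 rose and 1 fell in WT_DTH against WT_se. Jak3, the kinase bound to the common γ chain, rose (0.81 ± 0.08, adjusted p = 4.66e-05), as did the inhibitor Socs1 (0.66 ± 0.13, adjusted p = 0.00424). The survival gene Bcl2, which IL-7 signals maintain, fell (-0.34 ± 0.08, adjusted p = 0.00821, or 0.28 on the T cell scale). Stat5a (-0.43 ± 0.07, adjusted p = 0.00744), Stat5b (-0.45 ± 0.09, adjusted p = 0.0168) and Bcl2 (-0.33 ± 0.08, adjusted p = 0.0278) fell in KO_se against WT_se, 3 of the 10. On the T cell scale 0 of the 10 were called in that comparison. Jak3 (0.79), Socs1 (0.60) and Stat5a (0.36) rose in KO_DTH against KO_se. Il7 itself had 0, 0 and 0.334 CPM in WT_DTH and 0.403, 0.696 and 0.0714 CPM in WT_se, too few counts to read a difference (-1.74 ± 1.34, adjusted p = 0.428).

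For the receptors of movement, few partners passed. Of 7 genes around CCR7, Ccl21a alone fell in WT_DTH (-1.75 ± 0.52, adjusted p = 0.0344), a gene with near-identical copies between which reads can be split, and the other comparisons gave 0 calls by edgeR, with 1 at an unadjusted p below 0.05 in KO_DTH against KO_se, 0 in KO_se against WT_se and 0 in KO_DTH against WT_DTH. Of 12 genes of sphingosine 1-phosphate signalling, Sgpl1, the lyase that degrades it (0.55 ± 0.08, adjusted p = 0.000681), and Sphk2, a kinase that makes it (0.32 ± 0.10, adjusted p = 0.0467), rose in WT_DTH, and the phosphatase Plpp3 fell (-1.58 ± 0.30, adjusted p = 0.00319). Sphk2 also rose in KO_DTH against KO_se (0.46 ± 0.10, adjusted p = 0.0125). Cd69, which removes S1PR1 from the surface of activated cells, did not pass in WT_DTH (-0.06 ± 0.18, adjusted p = 0.869) or in KO_se (0.60 ± 0.18, adjusted p = 0.0713), each against WT_se.

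Around the transcription factors, 0 of 10 partners of TCF-1 and LEF-1 passed by edgeR in WT_DTH against WT_se, and 4 had an unadjusted p below 0.05. On the T cell scale 7 of the 10 rose, beside 44.7% of all genes. In the knockout Tcf7l2, a family member, rose in KO_DTH against KO_se (1.40 ± 0.41, adjusted p = 0.0488), 1 of the 10. The corepressor Tle4 fell (-0.46 ± 0.09, adjusted p = 0.0160) and the deacetylase Hdac1 rose (0.40 ± 0.09, adjusted p = 0.0229) in KO_se against WT_se. On the T cell scale 0 of the 10 fell in that comparison and 1 rose. Of 10 genes around KLF2 and FOXO1, the kinase Mapk7 (ERK5), which drives Klf2 in endothelium through MEF2 factors, rose in WT_DTH (0.87 ± 0.15, adjusted p = 0.00152), and Klf3 (-0.40 ± 0.13, adjusted p = 0.0496) and Klf6 (-0.34 ± 0.11, adjusted p = 0.0428) fell, both signs turning on the T cell scale (0.23 and 0.28). Klf3 fell in KO_se as well (-0.63 ± 0.13, adjusted p = 0.0168), a call lost on the T cell scale, where 0 of the 10 passed. Foxo1, which activates Klf2 and Il7r, did not pass in WT_DTH (0.18 ± 0.08, adjusted p = 0.163) or KO_se (-0.01 ± 0.08, adjusted p = 0.949). Of 10 partners of SATB1 and BACH2, 3 rose in WT_DTH. The largest was Prdm1 (Blimp-1), the effector regulator that BACH2 represses, with 22.5, 16.1 and 14.1 CPM in WT_DTH against 4.78, 4.71 and 6.67 CPM in WT_se (1.70 ± 0.25, adjusted p = 0.000748). Prdm1 rose in KO_se against WT_se too (0.95 ± 0.25, adjusted p = 0.0462). The cells that carried Prdm1 RNA were not identified. Mafg, a small MAF partner of BACH2, rose in WT_DTH (0.43) and in KO_DTH (0.45), each against its sensitized group.

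A further 20 naive T cell genes gave 10 lower and 1 higher in WT_DTH against WT_se, with a median log2 fold change of -0.37. On the T cell scale 1 was lower and 8 were higher (median 0.25), beside 3.52% and 44.7% of all genes. The thymocyte selection factor Themis (-1.002 ± 0.14, adjusted p = 0.000622), the costimulatory receptor Cd27 (-0.76 ± 0.09, adjusted p = 0.000214) and Igfbp4 (-0.69 ± 0.11, adjusted p = 0.00105) fell. Rasgrp1, an activator of RAS, fell (-0.60 ± 0.10, adjusted p = 0.00129, or 0.02 on the T cell scale), and Slfn2 rose (0.54 ± 0.10, adjusted p = 0.00218). In KO_DTH against KO_se 4 fell and 1 rose (median -0.10), among them Dapl1 (-0.88 ± 0.16, adjusted p = 0.00486) and Themis (-0.72 ± 0.14, adjusted p = 0.00758). For KO_se against WT_se 3 fell (Klf3, Igfbp4 and Bcl2, with a median of -0.24), and 0 of the 20 were called on the T cell scale. KO_DTH against WT_DTH gave 0 calls by edgeR and 3 at an unadjusted p below 0.05 (median -0.02). Cd4 fell in WT_DTH (-0.75 ± 0.12, adjusted p = 0.000906) and in KO_DTH (-0.504 ± 0.11, adjusted p = 0.0153), each against its sensitized group. Of the CD8 chains, Cd8b1 fell in both as well (-0.78 ± 0.15, adjusted p = 0.00308 in WT_DTH and -0.65 ± 0.15, adjusted p = 0.0142 in KO_DTH). Cd8a fell in WT_DTH (-0.61 ± 0.11, adjusted p = 0.00177) and did not pass in KO_DTH (-0.23 ± 0.10, adjusted p = 0.199). On the T cell scale 0 of the 3 genes Cd4, Cd8a and Cd8b1 passed by edgeR in either comparison. Their median there was -0.15 in WT_DTH against WT_se and -0.17 in KO_DTH against KO_se.

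Of 20 genes of T cell activation, 7 rose and 1 fell in WT_DTH against WT_se (median 0.29). On the T cell scale 16 rose, beside 44.7% of all genes and 12 of 12 B cell genes. Gzmb, the cytotoxic protease (2.21 ± 0.36, adjusted p = 0.00140), and Ifng (1.74 ± 0.33, adjusted p = 0.00312) rose, and Cd40lg, the helper ligand, fell (-1.09 ± 0.26, adjusted p = 0.0120). In KO_DTH against KO_se 4 rose, led by Gzmb (2.74 ± 0.37, adjusted p = 0.000619). Irf4, an effector regulator (0.67 ± 0.12, adjusted p = 0.00704), and Prdm1 rose in KO_se against WT_se, 2 of 20. Which cells carried these RNAs cannot be told in whole nodes, and all 12 B cell genes lay above 0 there too (median 0.58). In the same comparison 15 of 15 cell cycle genes rose (median 1.73), as did 9 of 12 genes of γδ T and innate lymphoid cells (median 1.81), beside the fall of Lef1, S1pr1, Satb1 and Cd28. Of those 12 genes 8 also rose in KO_DTH against WT_DTH (median 1.70), where 0 of the 9 genes passed. Of 12 endothelial genes 7 fell in WT_DTH against WT_se (median -1.43), and 0 passed by edgeR in KO_se against WT_se (5 at an unadjusted p below 0.05, median -0.65). Most of their summed level was Pecam1, singled out after its values were seen, at 138 to 169.6 CPM in WT_DTH, 135 to 168 CPM in KO_se and 140.0 to 159 CPM in WT_se. The other 11 summed to 26.6 to 31.8 CPM in WT_DTH, 26.8 to 42.1 CPM in KO_se and 50.5 to 54.9 CPM in WT_se. Of 11 mature dendritic cell genes 1 rose and 1 fell in WT_DTH, with 1325 to 2111 CPM in WT_DTH and 1291 to 1623 CPM in WT_se. None of the listed endothelial, dendritic or B cell genes was at 0 in all libraries, and their part in the results for Klf2, S1pr1, Ccr7 and Bach2 was not tested.

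Over the 12 libraries the 9 genes fell into a group of 6 that varied together and 3 that did not follow it. Among Cd28, Il7r, Ccr7, S1pr1, Lef1 and Tcf7 Pearson's r of log2 CPM lay between 0.64 (Ccr7 and Tcf7) and 0.94 (Lef1 and S1pr1). For Klf2 r lay between -0.29 (Ccr7) and 0.16 (Lef1) with the 6, and with Satb1 it was 0.78. Satb1 and Bach2 gave 0.53, and Bach2 and Ccr7 -0.72. These are descriptions over libraries that share their scaling and fall into 4 groups. With the mean of the T cell identity genes r was 0.94 for Ccr7, 0.92 for Cd28 and 0.80 for Il7r. Tcf7 gave 0.75, S1pr1 0.74, Lef1 0.74, Klf2 -0.30, Satb1 -0.58 and Bach2 -0.68. With the B cell genes r lay between -0.86 (Lef1) and 0.46 (Bach2), and with the salivary genes between -0.32 (Bach2) and 0.61 (Tcf7). Among the group of 6 genes r lay between 0.52 (Il7r) and 0.72 (Cd28) with the endothelial genes. It lay between 0.44 (Il7r) and 0.65 (Cd28) with the mitochondrial genes, and between 0.50 (Tcf7) and 0.68 (S1pr1) with the erythroid genes.

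**Figure D4:**
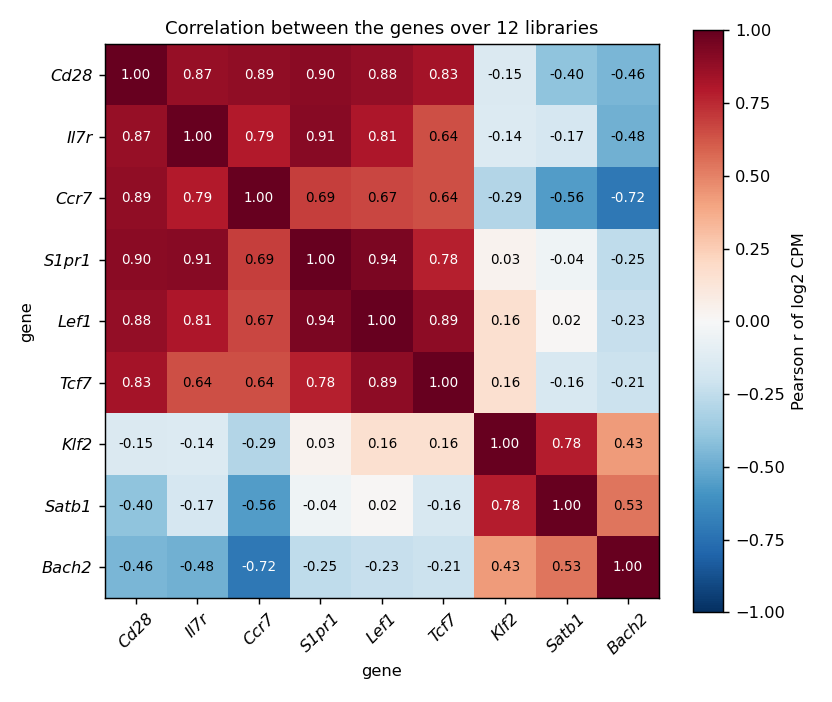
Pearson's r of log2 CPM between the 9 genes over the 12 libraries, as colour and number. The upper left block of 6 genes (Cd28, Il7r, Ccr7, S1pr1, Lef1 and Tcf7) holds values of 0.64 to 0.94 off the diagonal, and Klf2, Satb1 and Bach2 stand outside it.

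By the same measure over 12 libraries, the tested genes most like Cd28 were Dgka (r = 0.98), Saraf (r = 0.96) and Hp1bp3 (r = 0.96). For Il7r they were Ctsw (r = 0.96), Rapgef6 (r = 0.95) and Ikbke (r = 0.95), and for Ccr7 Inpp5b (r = 0.97), Rnf166 (r = 0.96) and Gprin3 (r = 0.95). Those most like S1pr1 were Ankrd50 (r = 0.96), Galnt6 (r = 0.96) and Kbtbd2 (r = 0.96). Lef1 was followed most closely by Dusp10 (r = 0.95), Dusp5 (r = 0.95) and Igsf23 (r = 0.95), and Tcf7 by Pnrc1 (r = 0.95), Unc5a (r = 0.92) and Trav9n-4 (r = 0.92), of which Trav9n-4 averaged 0.957 CPM. Klf2 was most like Nat10 (r = 0.91), Ip6k1 (r = 0.91) and Ell (r = 0.89), Satb1 like Arnt (r = 0.97), Arih2 (r = 0.96) and Slc7a1 (r = 0.96) and Bach2 like Cisd2 (r = 0.92), Iqsec1 (r = 0.91) and Pip5k1c (r = 0.91). Of the 27 places 0 went to another of the 9 genes.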

How the data were processed

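Per the labels, total RNA was extracted with RNeasy Mini kits and 1 µg was made into libraries with the NEBNext Ultra II Directional kit. Per the submitters' processing notes, fastp 0.23.2, HISAT2 2.2.1 and StringTie 2.2.1 were used with build GRCm39. How StringTie output became counts, and with which strand setting, is not given in the sources used here. The table the authors deposited holds estimated counts per gene, all whole numbers, so none was rounded. StringTie derives counts from coverage, and reads shared by similar genes can be split between them.

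Symbols, exon lengths and overlaps came from GENCODE M21 (51948 of 56941 IDs matched) and promoters from RefSeq, which held 6 of the 9 genes. Genes were tested with edgeR 4.0.16 in R 4.3.3 (quasi-likelihood, TMM, filterByExpr with a minimum count of 10, 20034 genes), in 1 model of the 12 libraries with a mean per group and 8 residual degrees of freedom. P-values are two-sided and adjusted by Benjamini-Hochberg over all genes tested, with a threshold of 0.05. Values after a gene are log2 fold change ± SE. Intervals of 95% use the t quantile at 8 degrees of freedom. Log2 CPM used a prior count of 2. Alternatives were DESeq2 1.42.0, its size factors, scaling to 16 T cell identity genes, no filter, a mean of at least 50 counts, only the libraries compared, the replicate block, a salivary score as covariate (mean log2 CPM of 18 salivary genes), and leaving out each library or the 4 richest in salivary counts. Of 250 list entries in 21 lists 242 matched. Other genes named are up to 4 per list and comparison by smallest p past the threshold, with 13 fixed genes (1 of them is not reported here), and the 3 best correlated with each of the 9. The genes, lists and tests were chosen with earlier results of these data known. The fit was tested on simulated counts. Libraries of 1 group differed far beyond counting noise (chi-squared per degree of freedom 36.8 to 293), so the p-values speak of variation among libraries, which may be technical.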

Additional observations from a re-analysis of the deposited data

How the results depend on the processing

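The number of the 9 genes called in WT_DTH against WT_se was 7, with 7 by DESeq2, 4 when libraries were scaled to T cell genes and 0 with the salivary score. In KO_DTH against KO_se 1 became 2 with DESeq2 size factors, with T cell scaling and with a mean of at least 50 counts, and 3 by DESeq2. In KO_se against WT_se 4 became 6 by DESeq2, 5 without the library richest in salivary counts of each group, 3 with no filter, 0 with T cell scaling and 0 with the salivary score. In KO_DTH against WT_DTH 0 became 1 by DESeq2, and in the interaction 0 became 1 with DESeq2 size factors, 1 with a mean of at least 50 counts, 2 without the library richest in salivary counts of each group and 2 by DESeq2. Leaving out 1 library gave 4 to 7, 1 to 2, 2 to 5, 0 to 0 and 0 to 2 genes in these 5 results. The cause was not tested, though the covariate and the left-out libraries also widen the SEs by their construction.

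Signs turned among values that did not pass, or that passed only before the change. With T cell scaling this held for Ccr7 (0.099), Tcf7 (0.12) and S1pr1 (0.064) in WT_DTH against WT_se, Ccr7 (0.056), Lef1 (0.26), Tcf7 (0.31) and S1pr1 (0.14) in KO_DTH against KO_se, Ccr7 (0.022) and Bach2 (0.14) in KO_se against WT_se, Ccr7 (-0.020) and Tcf7 (-0.032) in KO_DTH against WT_DTH, and Ccr7 (-0.042), Klf2 (-0.032) and Satb1 (-0.086) in the interaction. With the salivary score it held for Klf2 (-0.017) in WT_DTH against WT_se, Bach2 (-0.020) in KO_DTH against KO_se, Bach2 (0.091) in KO_se against WT_se, and Il7r (0.094), Tcf7 (-0.18), Klf2 (0.041) and S1pr1 (0.0034) in KO_DTH against WT_DTH. Without those 4 salivary-rich libraries it held for Lef1 (0.060) and Tcf7 (0.13) in KO_DTH against KO_se, Bach2 (0.091) in KO_se against WT_se, and Il7r (0.10), Lef1 (0.091), Klf2 (0.0095) and S1pr1 (0.0100) in KO_DTH against WT_DTH, and with no filter for Bach2 (0.013) in KO_se against WT_se. Leaving out 1 library gave ranges across 0 for Lef1 (-0.16 to 0.012), Tcf7 (-0.13 to 0.086) in KO_DTH against KO_se, Bach2 (-0.17 to 0.094) in KO_se against WT_se, and Cd28 (-0.012 to 0.27), Ccr7 (-0.022 to 0.20), Lef1 (-0.13 to 0.0093), Tcf7 (-0.044 to 0.13), Klf2 (-0.15 to 0.017) in KO_DTH against WT_DTH. With the CD3 genes as the only T cell reference the log2 ratio moved by more than its SD for Lef1 (0.38) and S1pr1 (0.25) in KO_DTH against KO_se and Ccr7 (-0.067) in KO_se against WT_se.

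The calls over all genes changed with the setting too. With the salivary score 32, 586, 110, 1 and 0 genes passed, against 3755, 1938, 1035, 120 and 422. By DESeq2 these were 4603, 3038, 2358, 945 and 1287, with T cell scaling 9661, 2764, 1048, 101 and 425, without the 4 salivary-rich libraries 2464, 673, 351, 83 and 168, and with no filter 3251, 1470, 848, 64 and 267. Leaving out 1 library gave 2566 to 3890, 1039 to 2035, 369 to 1100, 14 to 471 and 0 to 830 genes. Deviations of same-numbered libraries correlated at -0.10 to 0.14. Differently numbered libraries were not set beside them, so this cannot decide whether replicate numbers pair the libraries. With the replicate block 3400, 1729, 880, 38 and 128 genes passed, and of the 9 genes 7, 1, 3, 0 and 0, Cd28 in KO_se against WT_se being the one lost (-0.58).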
